A study of Mus musculus with 20 samples.

Results

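Cisplatin has to cross the plasma membrane before it can reach DNA, and the genes described here encode 10 membrane proteins linked to its entry into cells and its removal from them. They were picked by mouse gene symbol from a table of 35226 genes, and all 10 had a row. The choice followed their function and used no threshold on measured values, but it was made with earlier results of these data known. They comprise the copper transporters Slc31a1 and Slc31a2, the organic cation carrier Slc22a3, the volume-regulated anion channel subunits Lrrc8a and Lrrc8d, the copper-exporting ATPases Atp7a and Atp7b, and the ATP-driven drug pumps Abcb1a, Abcb1b and Abcg2. A filter on low counts left 16665 genes for testing, 9 of these transporters among them, and Slc22a3 was not tested.

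The samples were 20 LLC1 tumors whose poly(A) RNA had been sequenced, LLC1 being a Lewis lung carcinoma line of C57BL/6 origin. The cells were injected with Matrigel under the skin of the right flank of male C57Bl6/J mice, and mice bearing established tumors received vehicle, KW6002 (istradefylline, an antagonist of the adenosine receptor that Adora2a encodes), cisplatin, or cisplatin with KW6002 (cotreatment). Each group held 5 tumors, and the doses and times for this model are not in the labels. Tumor and host cells are both of mouse, so their RNA was counted together, and fewer cells of a type and less RNA per cell cannot be told apart. The labels number the tumors 1 to 5 within each group. P values measure the spread between these tumors.

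Copper transporter 1, the product of Slc31a1, carries copper into cells and has long been studied as a route for platinum drugs, while its relative Slc31a2 lies largely on intracellular membranes and lowers net uptake. LRRC8 proteins form channels that open when cells swell, in which LRRC8A is obligatory and LRRC8D lets larger, uncharged molecules pass. ATP7A and ATP7B move copper into the secretory pathway and out of the cell, and ABCB1 (P-glycoprotein) and ABCG2 expel many drugs, although cisplatin itself is regarded as a poor substrate of P-glycoprotein. Mice have a pair of P-glycoprotein genes, Abcb1a and Abcb1b, where humans have a single one.

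Total counts ranged from 28.4 to 41 M reads per tumor, and values are given as counts per M reads (CPM) on effective library sizes (TMM). Summed keratin and adhesion markers of epithelial carcinoma cells lay between 324 and 600 CPM over the 20 tumors, and the 3 markers of differentiated lung epithelium that had a row stayed at or below 0.178 CPM. The labels also carry a library code, and the codes fall into an earlier run (1 vehicle, 2 KW6002, 2 cisplatin and 3 cotreated tumors) and a later run with the other 12 tumors. What the codes stand for is not stated. Cisplatin tumors 1 and 2 belong to the earlier run and cisplatin tumors 3, 4 and 5 to the later run, so values within the later run are given for each transporter whose call they change. Several cell type markers differed between the groups. The epithelial carcinoma markers summed to 392 to 426 CPM in vehicle tumors, 481 to 600 CPM with cisplatin and 468 to 549 CPM with cotreatment, so that both groups given cisplatin lay above all vehicle tumors. Krt8 was the only one of these 5 genes called with either treatment, beside 10.6% of all genes called with cisplatin and 23.5% with cotreatment, and Epcam did not pass the filter on low counts. The summed endothelial markers ran from 160 to 239 CPM in vehicle tumors, from 81.7 to 111 CPM with cisplatin and from 81.2 to 124 CPM with cotreatment. Red blood cell markers ran from 26.0 to 117 CPM with vehicle and were at most 0.276 CPM in either group given cisplatin, with 3 of 7 markers at 0 in all cisplatin tumors and 2 of 7 in all cotreated tumors. Neutrophil markers summed to 44.7 to 120 CPM with vehicle, 13.6 to 67.3 with cisplatin and 13.6 to 32.3 with cotreatment, so that only the cotreated tumors lay apart from vehicle. Fibroblast marker sums overlapped between all groups, at 8603 to 14350 CPM, and 2 of 7 were called lower with cisplatin and 2 of 7 with cotreatment, beside 10.6% and 23.5% of all genes. Over the 20 tumors, skeletal muscle markers ran from 3.76 to 1104 CPM, the highest in cotreated tumor 4, and skin epidermis markers from 0.855 to 1.96 CPM. T and NK cell markers ran from 2.55 to 22.7 CPM with KW6002 and from 0.967 to 2.81 CPM with cotreatment, and 5 of 6 were called lower in cotreated than in KW6002 tumors, beside 23.3% of all genes. Macrophage markers overlapped between groups, with 1180 to 1646 CPM with vehicle, 1284 to 2314 with cisplatin and 1299 to 1709 with cotreatment, and 1 of 8 was called higher with cisplatin, beside 10.6% of all genes, and 2 higher (Mrc1 and Cd163) and 1 lower (Csf1r) with cotreatment, beside 23.5%. Their part in the transporter values was not tested.

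Per length, the copper transporters were the most abundant of the 10 genes. Slc31a1 averaged 19.98 ± 1.07 CPM per exonic kilobase over the 20 tumors (SD, n = 20) and Slc31a2 averaged 18.4 ± 4.03, and the ranges of these neighbours in the order overlapped. Abcb1b came next at 6.93 ± 1.65, with Lrrc8d at 4.57 ± 0.351, Lrrc8a at 3.36 ± 0.441, Atp7a at 3.20 ± 0.411, Abcg2 at 2.33 ± 0.419 and Abcb1a at 1.73 ± 0.422 CPM per exonic kilobase. Each gene of that series overlapped in range with the next. A clear gap separated only 2 pairs of neighbours, Slc31a2 from Abcb1b and Abcb1a from Atp7b. Atp7b at 0.0748 ± 0.0710 and Slc22a3 at 0.0417 ± 0.11 CPM per exonic kilobase were near the limit of detection. The exonic lengths are those of GENCODE release 21 for mouse (GRCm38), which is close to but not the annotation that was counted, so the order among neighbours is approximate.

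**Figure D1:**
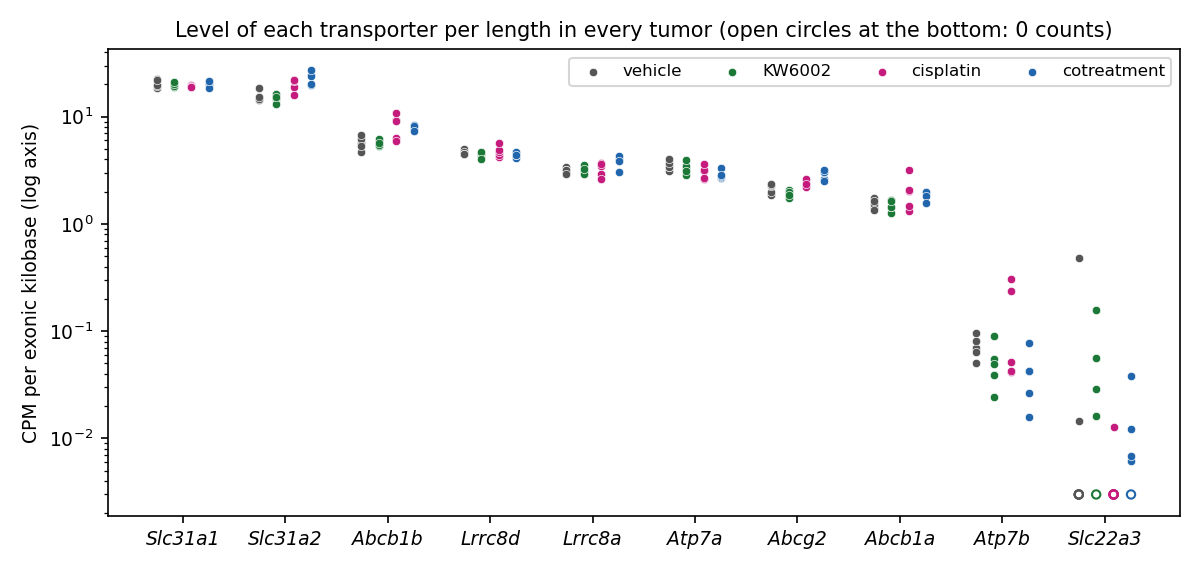
Level of each transporter in CPM per exonic kilobase (log axis) in each of the 20 tumors, coloured by group, with open circles for tumors with 0 counts. Slc31a1 and Slc31a2 lie highest, a band from Abcb1b to Abcb1a lies between 1.27 and 10.8, and Atp7b and Slc22a3 lie below 0.5.

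Cisplatin was accompanied by higher Slc31a2 and Abcb1b, and cotreatment by higher Slc31a2, Abcb1b and Abcg2, whereas no transporter was called with KW6002 alone. A gene was called changed at an adjusted P under 0.05 and an absolute log2 fold change of at least 0.32, adjusted over all genes tested. With cisplatin, 2 of the 9 transporters tested were called higher and none lower, beside 10.6% of all genes tested that were called in this comparison. With cotreatment 3 of 9 were called higher than in vehicle tumors, beside 23.5% of all genes, and against KW6002 alone the same 3 genes were called, beside 23.3% of all genes. The median log2 fold change of the 9 genes was 0.17 with cisplatin and 0.28 with cotreatment, and over all genes tested it was 0.00 and -0.02. In a stricter test against the fold limit itself, no transporter was called with cisplatin, and of the 3 called with cotreatment against vehicle only Slc31a2 remained. Against KW6002 alone Slc31a2 and Abcg2 remained and Abcb1b was lost (adjusted P = 0.207). These counts and medians describe 9 genes and were not tested against those of other genes. All comparisons with vehicle share the same 5 vehicle tumors.

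KW6002 against vehicle gave 0 calls among the transporters by edgeR and by DESeq2, beside 0% of all genes tested. Abcg2 was the only one of the 9 with an unadjusted P under 0.05, as had 339 of the 16665 genes tested (log2 fold change -0.17, 95% interval -0.35 to -0.00, unadjusted P = 0.0457, adjusted P = 1). For Slc31a1 the interval ran from -0.15 to 0.08, for Slc31a2 from -0.28 to 0.13, and for Abcb1b from -0.27 to 0.28. Cotreatment against cisplatin, the comparison that asks what KW6002 added, also gave 0 calls with edgeR, beside 4% of all genes, although 3 of the 9 (Atp7b, Abcg2 and Lrrc8a) had an unadjusted P under 0.05, as did 3883 of the 16665 genes tested, and DESeq2 called 1 of them, Atp7b, among 856 genes it called in all. The interaction, that is the effect of KW6002 in the presence of cisplatin minus its effect without, gave 0 calls by edgeR, beside 0.066% of all genes, and 1 by DESeq2, Abcg2, among 258 genes it called in all. Abcg2 also had the only unadjusted P under 0.05 of the 9 there, beside 2034 of all genes tested.

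**Figure D2:**
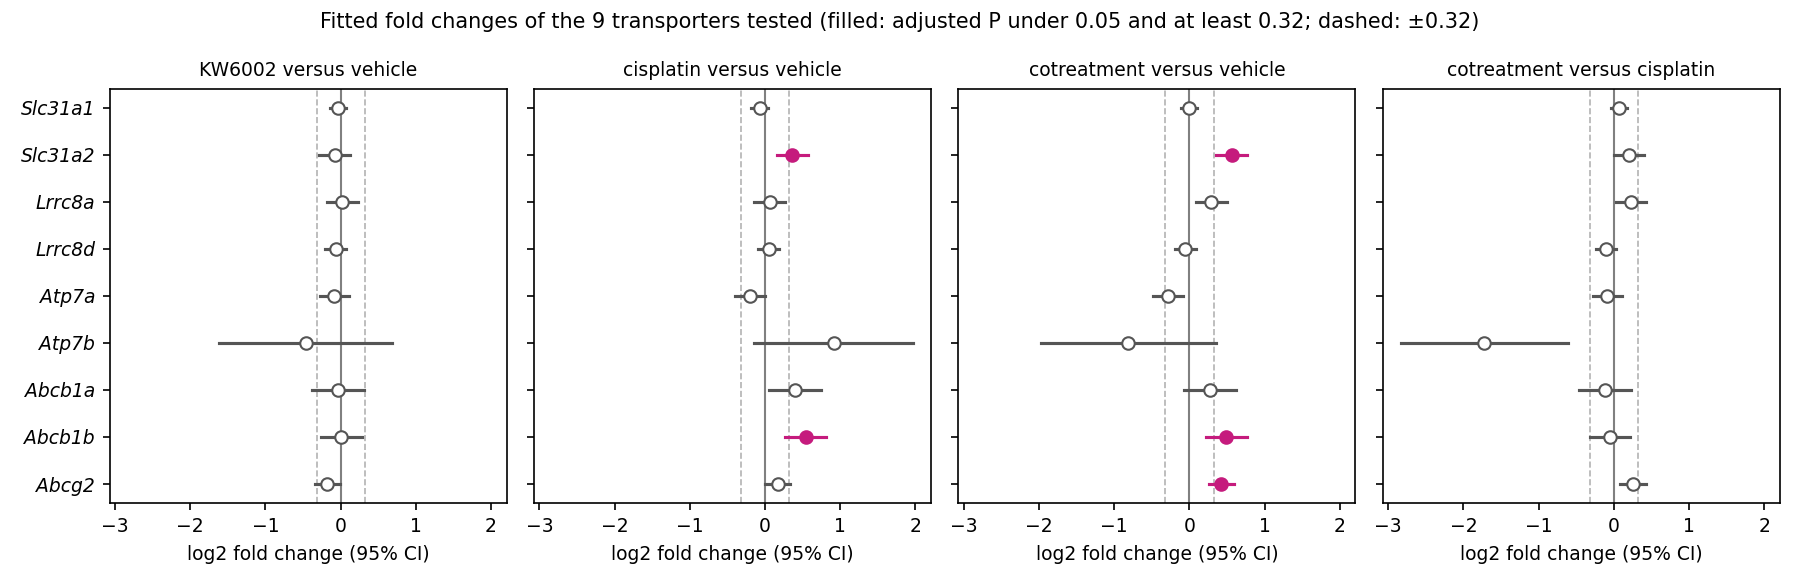
Log2 fold change (x axis, with 95% interval) of the 9 transporters tested in 4 comparisons. Filled points mark the genes called, which are Slc31a2 and Abcb1b for cisplatin and Slc31a2, Abcb1b and Abcg2 for cotreatment, and the wide bars of Atp7b reflect counts of 3 to 69 per tumor.

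Slc31a1 (chr4:62360727-62391769, + strand) was the steadiest of the transporters. In vehicle tumors 1 to 5 it measured 78.5, 83.3, 84.3, 95.7 and 93.9 CPM, and in cisplatin tumors 84.9, 84.8, 82.3, 81.3 and 81.6 CPM. Cotreated tumors gave 89.4, 88.0, 86.1, 79.9 and 91.2 CPM. The groups overlapped throughout, and the coefficient of variation over all 20 tumors was 5.37%. The log2 fold change was -0.07 with cisplatin (95% interval -0.18 to 0.04, edgeR adjusted P = 0.383) and -0.00 with cotreatment (-0.11 to 0.11, adjusted P = 0.969). Slc31a1 overlaps Cdc26 on the opposite strand, which had 1200 to 1799 counts per tumor. The libraries were stranded, but the strand setting of the counting is not stated, and without it reads of the overlapping stretch cannot be told apart.

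Slc31a2 (chr4:62262562-62298411, + strand), which lies on the same chromosome as Slc31a1 and encodes copper transporter 2, was called higher in both groups given cisplatin. Vehicle tumors 1 to 5 measured 29.3, 31.2, 29.8, 37.5 and 31.1 CPM and KW6002 tumors 29.6, 33.1, 30.5, 26.9 and 30.9 CPM. Cisplatin tumors gave 32.5, 38.1, 45.0, 44.2 and 44.8 CPM and cotreated tumors 40.3, 50.04, 48.5, 41.4 and 54.8 CPM. Every cotreated tumor was above every vehicle tumor, whereas cisplatin tumor 1 lay within the vehicle range. Group means rose from 31.8 ± 3.31 CPM with vehicle to 40.9 ± 5.51 with cisplatin and 47.0 ± 6.12 with cotreatment (SD, n = 5). The log2 fold change was 0.36 ± 0.0982 (SE) with cisplatin (edgeR adjusted P = 0.0149) and 0.56 ± 0.0982 with cotreatment (adjusted P = 0.00017). Against cisplatin alone, cotreatment differed by 0.20 (95% interval -0.00 to 0.40, adjusted P = 0.221), which did not pass. Without cisplatin tumors 4 and 5 the cisplatin value was 0.29, short of the fold limit, so the call was lost there. That setting was chosen after the values were seen wherever it is given. No P is given for it, since both tumors lie in the upper part of that group. The call was kept within the later run of library codes (0.48, adjusted P = 0.0064). Within the cisplatin group, macrophage markers were also highest in cisplatin tumors 3 to 5, at 2002, 2314 and 1827 CPM against 1284 and 1447 CPM in cisplatin tumors 1 and 2. Epithelial carcinoma markers (522, 600 and 552 CPM against 501 and 481) and neutrophil markers (24.0, 38.6 and 67.3 CPM against 14.1 and 13.6) were split in the same way. In the cotreated tumors Slc31a2 was higher still on average. There the macrophage sum ran from 1299 to 1709 CPM beside 1180 to 1646 CPM with vehicle, with 2 of the 8 markers called higher and 1 lower. The epithelial sum there was 468 to 549 CPM beside 392 to 426 with vehicle, and the neutrophil sum 13.6 to 32.3 beside 44.7 to 120. Whether any of these cells bear on Slc31a2 was not tested.

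The balance of both copper transporters was also followed as a share. Slc31a1 made up 56.6 ± 1.59% of their reads per exonic kilobase in vehicle tumors (SD, n = 5), 57.3 ± 2.40% with KW6002, 49.3 ± 4.03% with cisplatin and 46.9 ± 2.81% with cotreatment. The lowest vehicle tumor was above the highest cotreated tumor, which reached 51.3%. The difference between cotreatment and vehicle was -9.67 percentage points (two-sided exact permutation test, P = 0.00794, the smallest this test can give with 5 against 5), and between cisplatin and vehicle -7.32 points (exact permutation P = 0.0159). The difference between cotreatment and KW6002, whose lowest tumor was at 53.9%, was -10.4 points (exact permutation P = 0.00794). Over the 20 tests of 4 shares in 5 comparisons the adjusted P values were 0.0794 for both cotreatment differences and 0.106 for cisplatin, so none passed. Under this adjustment a share at the smallest possible P passes only if several other tests reach it too. A missed threshold therefore does not show that the shares were alike.

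**Figure D3:**
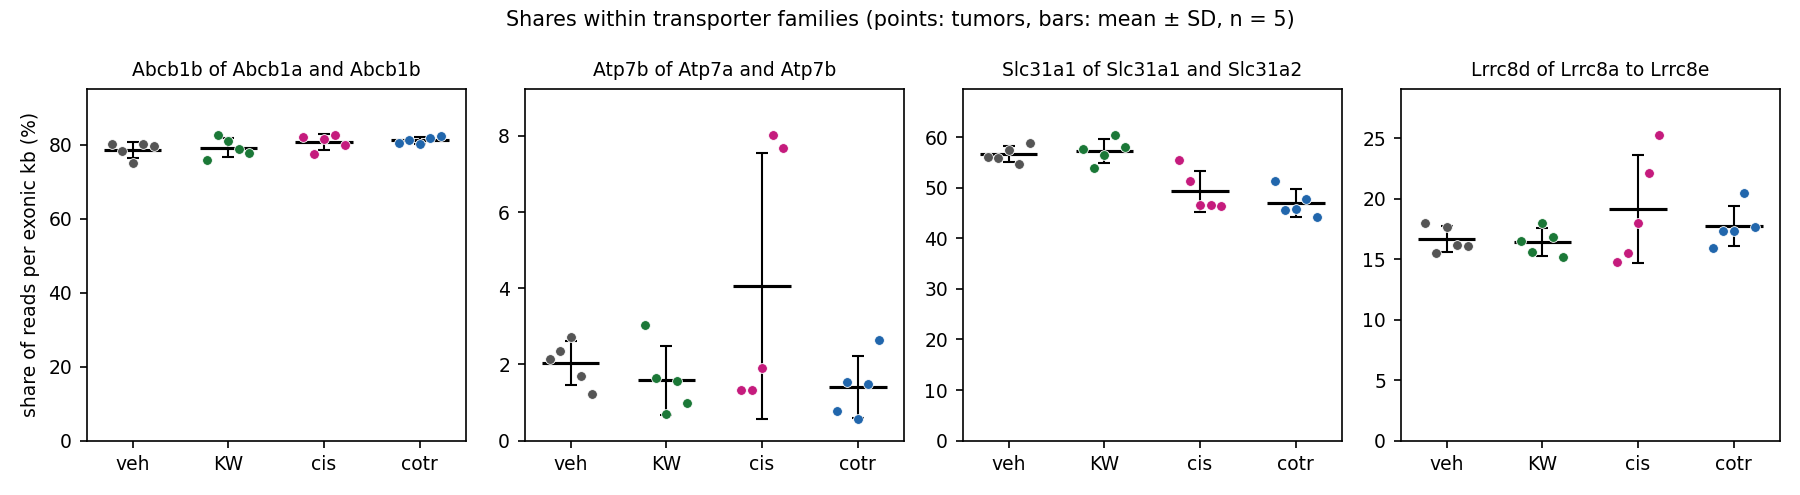
Share of one member in the reads per exonic kilobase of its family (percent, y axis from 0) in each tumor, with the mean and SD of 5 tumors per group. The share of Slc31a1 averages 56.6% with vehicle, 49.3% with cisplatin and 46.9% with cotreatment (differences that did not pass the test), the share of Abcb1b is near 80% in every group, and the share of Atp7b is high in only 2 cisplatin tumors.

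Because Slc31a2, Abcb1b and Abcg2 were the transporters called, the 250 bases before their RefSeq transcription start sites (GRCm38.p6) are shown. Capitals mark matches, on either strand, to a metal response element core (TGCACNC or TGCGCNC), an antioxidant response element core (TGACNNNGC), a CCAAT box, a GC box (GGGCGG) or the p53 half-site. No match overlapped another in these 3 windows. The Slc31a2 window lies at chr4:62286179-62286428, + strand, 20 bases before the start of its principal GENCODE transcript.
Slc31a2: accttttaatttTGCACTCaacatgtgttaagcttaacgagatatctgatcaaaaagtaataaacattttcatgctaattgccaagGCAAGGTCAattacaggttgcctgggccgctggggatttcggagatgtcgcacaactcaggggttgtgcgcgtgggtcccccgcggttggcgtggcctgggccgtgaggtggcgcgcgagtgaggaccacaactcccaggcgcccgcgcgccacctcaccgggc
This window held 1 metal response element core, TGCACNC, 238 to 232 bases before the start, and 1 antioxidant response element core, on the minus strand, 164 to 156 bases before it. The same letters occurred in 10.4% and 10.2% of 32817 mouse promoter windows of this length. The Abcb1b window lies at chr5:8797897-8798146, + strand, 39 bases from the start of the principal GENCODE transcript, and it overlaps an exon of the antisense gene Gm5106, which had 1 to 12 counts per tumor.
Abcb1b: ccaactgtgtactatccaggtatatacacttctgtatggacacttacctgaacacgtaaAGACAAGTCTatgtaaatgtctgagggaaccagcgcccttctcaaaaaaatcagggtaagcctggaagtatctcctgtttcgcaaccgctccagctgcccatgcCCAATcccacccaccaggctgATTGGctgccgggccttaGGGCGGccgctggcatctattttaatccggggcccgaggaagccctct
It held 1 p53 half-site (191 to 182 bases before the start), a motif present in 7.12% of all windows, with 2 CCAAT boxes in opposite directions (33.8% of windows hold one) and 1 GC box (32.7%). Of the 3 RefSeq starts of Abcg2, the one whose window holds no exon of the gene lies at chr6:58640296-58640545, + strand.
Abcg2: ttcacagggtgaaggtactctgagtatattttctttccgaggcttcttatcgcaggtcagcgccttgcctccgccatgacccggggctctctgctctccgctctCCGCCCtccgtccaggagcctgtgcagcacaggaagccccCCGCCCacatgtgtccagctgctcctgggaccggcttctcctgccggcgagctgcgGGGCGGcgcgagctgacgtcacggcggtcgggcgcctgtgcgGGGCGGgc
That window held 4 GC boxes and no match to the other motifs. Of the transporters not called, windows of Atp7a, Atp7b and Lrrc8d also held metal response element cores, those of Slc31a1, Atp7a, Lrrc8a and Lrrc8d held GC boxes, and those of Slc31a1 and Lrrc8d held CCAAT boxes, while the antioxidant response element core was found only in the Slc31a2 window and the p53 half-site only in the Abcb1b window among the windows searched. The window of Abcb1a was taken at a RefSeq start 92986 bases from the nearest GENCODE start of that gene, so sequence at the latter was not searched. A match of letters is a description of the sequence and does not show that a factor binds there.

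Slc22a3 (chr17:12418960-12507704, - strand), which encodes organic cation transporter 3, was all but silent. Counts were 0, 62, 0, 0 and 2 in vehicle tumors 1 to 5 and 23, 4, 0, 8 and 2 in KW6002 tumors. Cisplatin tumors had 0, 0, 0, 0 and 2 counts, and cotreated tumors 7, 2, 0, 1 and 1. Only 2 of the 20 tumors reached 10 counts, vehicle tumor 2 and KW6002 tumor 1. The same 2 tumors had the highest sums of 6 fat marker genes, 338 and 165 CPM, followed by KW6002 tumor 4 (98.7 CPM, 8 counts of Slc22a3) and cotreated tumor 1 (75.4 CPM, 7 counts). In the 16 other tumors the fat sum was 51.9 CPM or less and Slc22a3 had at most 4 counts. The part of fat tissue in these counts was not tested. No difference between groups was tested for Slc22a3.

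**Figure D4:**
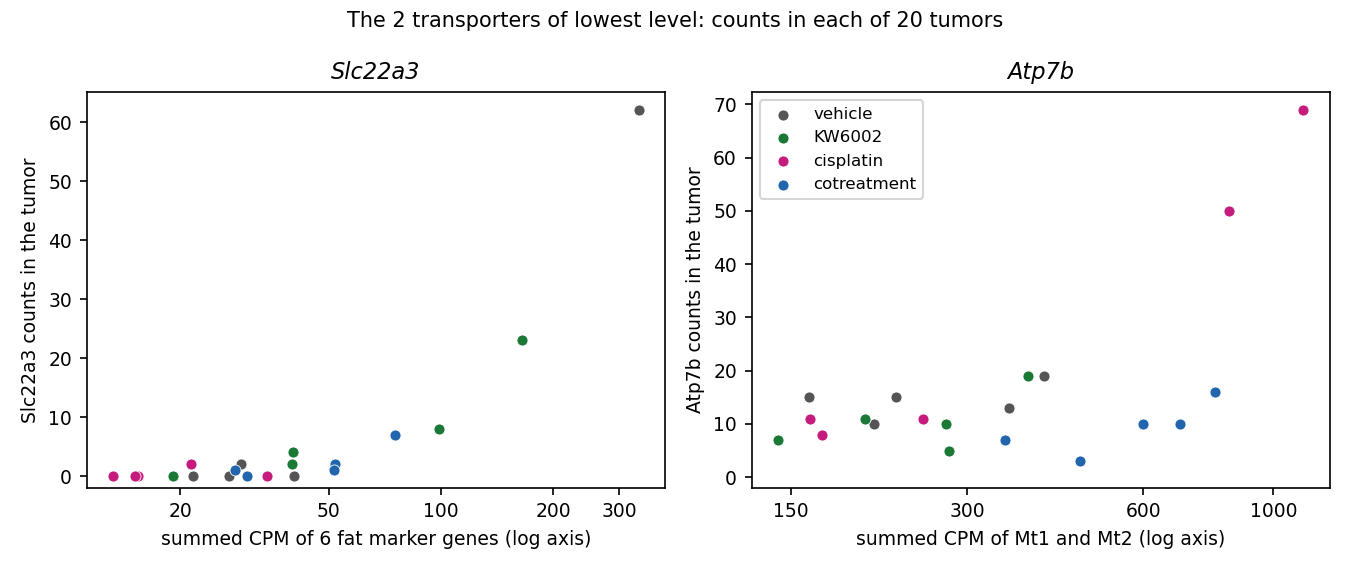
Counts of Slc22a3 against the summed CPM of 6 fat marker genes (left) and counts of Atp7b against the summed CPM of Mt1 and Mt2 (right), log x axes, with a point for each of 20 tumors. The 62 and 23 counts of Slc22a3 sit at the 2 highest fat sums, and the 50 and 69 counts of Atp7b at the 2 highest metallothionein sums.

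Neither Lrrc8a nor Lrrc8d, the volume-regulated anion channel subunits, was called over the 20 tumors. Lrrc8a (chr2:30237715-30263790, + strand) measured 12.8, 14.7, 13.7, 13.7 and 12.7 CPM in vehicle tumors and 14.9, 15.9, 15.8, 12.6 and 11.4 CPM in cisplatin tumors. Cotreated tumors gave 17.2, 17.5, 18.4, 13.1 and 16.6 CPM. Cotreated tumor 4 was within the vehicle range and the other 4 were above it. The log2 fold change with cotreatment was 0.29 ± 0.0984 (SE; edgeR adjusted P = 0.0248), short of the fold limit, and within the later run it was 0.14 (adjusted P = 0.547). It passed the limit without cotreated tumor 4, the tumor with 1104 CPM of skeletal muscle markers (0.38, adjusted P = 0.00288) or vehicle tumor 2 (0.34, adjusted P = 0.0182), and without cotreated tumor 4 also against KW6002 (0.35, adjusted P = 0.00544). Of the 50-base windows of Lrrc8a transcripts, 66.2% also occur in other genes, nearly all of them in Gm28035, a gene on the same strand that had 1 to 14 counts. Union counting leaves out reads that fall on exons of both, so the level of Lrrc8a may be understated in every tumor alike.

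Lrrc8d (chr5:105699969-105832436, + strand) ranged from 50.4 to 71.5 CPM over all tumors. Group means were 58.2 ± 2.99 CPM with vehicle, 55.6 ± 3.21 with KW6002, 60.1 ± 7.08 with cisplatin and 56.0 ± 2.62 with cotreatment (SD, n = 5). The groups overlapped, with log2 fold changes of 0.05 (95% interval -0.09 to 0.19) for cisplatin and -0.06 (-0.19 to 0.08) for cotreatment. Cisplatin tumors 4 and 5 were its highest in that group, at 61.5 and 71.5 CPM, and the 2 lowest for Lrrc8c, another channel subunit, at 58.7 and 57.4 CPM. Lrrc8c was called lower with cotreatment (81.5 ± 2.89 CPM in vehicle and 64.5 ± 4.83 CPM in cotreated tumors, log2 fold change -0.34, edgeR adjusted P = 0.00361), beside 23.5% of all genes called. Its fold change was inside the fold limit, at -0.29 to -0.32, without vehicle tumor 5 or cotreated tumor 2, 4 or 5. Lrrc8b and Lrrc8e were not called in any comparison. The share of Lrrc8d among the 5 subunits was 16.7 ± 1.09% with vehicle, 19.2 ± 4.49% with cisplatin and 17.8 ± 1.67% with cotreatment, and no comparison of it passed (smallest adjusted exact permutation P = 0.459).

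Neither copper ATPase was called by edgeR in any comparison over the 20 tumors. Atp7a (chrX:106027276-106124926, + strand), whose product delivers copper to secreted enzymes and exports it, measured 27.4, 29.5, 29.9, 32.0 and 35.2 CPM in vehicle tumors and 29.2, 23.5, 24.2, 24.4 and 24.8 CPM in cotreated tumors. Cotreated tumors 2 to 5 were below every vehicle tumor, and cotreated tumor 1 was not. The log2 fold change was -0.29 ± 0.0953 (SE) with cotreatment (edgeR adjusted P = 0.0224), which is inside the fold limit, so Atp7a was not called. Without cotreated tumor 1 it was -0.35 (adjusted P = 0.00953), past the limit. With cisplatin it was -0.20 (95% interval -0.40 to -0.01, adjusted P = 0.149), the 5 tumors running from 23.1 to 31.9 CPM.

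Atp7b (chr8:21992785-22060305, - strand), the gene of Wilson disease and an exporter of copper into bile, was present at a few counts. It had 13, 15, 19, 15 and 10 counts in vehicle tumors 1 to 5 and 19, 11, 5, 10 and 7 in KW6002 tumors. Cisplatin tumors had 8, 11, 11, 50 and 69 counts, and cotreated tumors 7, 10, 3, 10 and 16. Cisplatin tumors 4 and 5 stood apart from the other 18, none of which exceeded 19 counts. The cisplatin fold change was 0.91 ± 0.506 on the log2 scale (SE; edgeR adjusted P = 0.229), 0.37 without cisplatin tumor 5 (adjusted P = 0.659), 1.46 within the later run (adjusted P = 0.041), and -0.65 without tumors 4 and 5, which hold its highest counts, so no P is given for it. Cotreatment against cisplatin gave -1.72 ± 0.532 (adjusted P = 0.0555) and -0.15 without them. It was -1.17 without cisplatin tumor 5 alone (adjusted P = 0.208), and it was called without cisplatin tumor 1 (-1.94, adjusted P = 0.0275), cisplatin tumor 2 (-1.96, adjusted P = 0.0253) or cotreated tumor 5 (-2.06, adjusted P = 0.0428). The metallothioneins Mt1 and Mt2, small metal-binding proteins, summed to 840 and 1126 CPM in cisplatin tumors 4 and 5, whereas cisplatin tumors 1 to 3 lay within the vehicle range of 161 to 406 CPM. These genes were chosen for mention after their values were seen. Cotreated tumors had 349 to 795 CPM of them with at most 16 counts of Atp7b.

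Among the pumps, Abcb1b was called higher with cisplatin and with cotreatment, and Abcb1a was not called in either. Abcb1b (chr5:8798147-8866315, + strand) measured 45.3, 49.4, 37.1, 53.4 and 42.2 CPM in vehicle tumors 1 to 5 and 42.2, 48.0, 49.2, 43.3 and 45.7 CPM in KW6002 tumors. Cisplatin tumors gave 74.5, 86.7, 72.7, 50.2 and 47.2 CPM and cotreated tumors 65.2, 66.5, 64.2, 65.5 and 58.5 CPM. Cisplatin tumors 1 to 3 were above every vehicle tumor and cisplatin tumors 4 and 5 were within the vehicle range, whereas all 5 cotreated tumors lay above it. Cisplatin tumors 4 and 5 also had the highest sums of that group for fibroblast markers (14350 and 12260 CPM, against 8603 to 9826 in tumors 1 to 3) and neutrophil markers (38.6 and 67.3 CPM, against 13.6 to 24.0), and likewise for epithelial carcinoma, fat, T and NK cell and skin epidermis markers. The part of these cells in the values of Abcb1b, Abcb1a, Lrrc8a and Atp7b was not tested. Group means were 45.5 ± 6.31 CPM with vehicle, 66.3 ± 16.9 with cisplatin and 64.0 ± 3.19 with cotreatment (SD, n = 5). Log2 fold changes were 0.54 ± 0.13 (SE; edgeR adjusted P = 0.0078) and 0.49 ± 0.13 (adjusted P = 0.00598). The cisplatin call was lost in a fit of only the cisplatin and vehicle tumors (0.55, adjusted P = 0.0583). Within the later run both missed the threshold, at 0.34 (adjusted P = 0.128) and 0.47 (adjusted P = 0.084), in a fit with 3 cisplatin and 2 cotreated tumors. Against KW6002 alone, cotreatment gave 0.49 (adjusted P = 0.00658), and 0.44 within the later run (adjusted P = 0.144), where the call was lost too. Cotreatment and cisplatin differed by -0.05 (95% interval -0.32 to 0.22, adjusted P = 0.848). That difference turned with the cisplatin tumors entered, being 0.13 within the later run, 0.17 without cisplatin tumors 1 and 2 and -0.28 without cisplatin tumors 4 and 5.

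Abcb1a (chr5:8660077-8748575, + strand) measured 7.70, 9.46, 8.49, 9.06 and 7.37 CPM with vehicle, 11.2, 17.3, 11.4, 7.24 and 8.10 CPM with cisplatin, and 10.9, 10.5, 10.98, 9.96 and 8.67 CPM with cotreatment. Again cisplatin tumors 1 to 3 were above all vehicle tumors, and cisplatin tumors 4 and 5 were not. Its log2 fold change with cisplatin was 0.39 ± 0.167 (SE; edgeR adjusted P = 0.112) and was not called. It was 0.17 without cisplatin tumor 2, 0.07 within the later run (adjusted P = 0.76) and 0.67 without cisplatin tumors 4 and 5, which hold its lowest values in that group, so no P is given for it. Leaving out only tumor 4 (0.52, adjusted P = 0.028) or only tumor 5 (0.49, adjusted P = 0.0491) also gave a call. With cotreatment it was 0.28 (95% interval -0.07 to 0.63, adjusted P = 0.204). Against KW6002 alone cotreatment gave 0.32 ± 0.167 (SE, adjusted P = 0.151), which was called in a fit of only those groups (0.32 ± 0.101, adjusted P = 0.0218). This difference was 0.33 ± 0.119 without cisplatin tumors 1 and 2 and 0.32 ± 0.119 without cisplatin tumors 4 and 5. Both settings were chosen after the values were seen, so no P is given for them. The cisplatin group is not part of this comparison, and leaving out its tumors changed mainly the SE. Abcb1a is the P-glycoprotein gene of capillary endothelium in the mouse, and endothelial markers were lower in every tumor given cisplatin than in every vehicle tumor. Their part in the value of Abcb1a was not tested.

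Reads of Abcb1a and Abcb1b can be separated only where their sequences differ, so 2 read-length stretches of their coding sequences are shown. Both coding sequences are 3828 bases long and were 89.4% identical over 3792 aligned bases, with 1 identical run of 338 bases. Of 3125 aligned 50-base windows, 24.6% were identical, and a read from such a window has no unique place within the coding sequence. The run opens in exon 13 with the same 50 bases in both genes, at chr5:8702387-8702436 in Abcb1a and chr5:8824707-8824756 in Abcb1b (GRCm38, + strand).
Abcb1a: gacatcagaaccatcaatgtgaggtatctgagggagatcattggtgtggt
Abcb1b: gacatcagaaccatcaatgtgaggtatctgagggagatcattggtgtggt
The stretch that differs most, with 20 differing bases in capitals, lies in exon 16 of each, at chr5:8714926-8714975 and chr5:8827365-8827414 (GRCm38, + strand).
Abcb1a: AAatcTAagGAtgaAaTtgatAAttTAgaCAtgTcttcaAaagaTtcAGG
Abcb1b: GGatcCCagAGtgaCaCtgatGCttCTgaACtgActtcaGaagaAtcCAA
Uniquely aligned reads were counted, which leaves out reads that match both genes equally, in all tumors alike. Of the 50-base windows of their transcripts, 22.5% for Abcb1a and 12.8% for Abcb1b also occur in other genes. Exonic lengths were not corrected for this, so Abcb1a may be understated more and the share of Abcb1b overstated. Abcb1b made up 78.6 ± 2.19% of the reads per exonic kilobase of the pair in vehicle tumors, 79.2 ± 2.66% with KW6002, 80.7 ± 2.08% with cisplatin and 81.2 ± 0.942% with cotreatment (SD, n = 5). The share differed by 2.07 percentage points between cisplatin and vehicle (two-sided exact permutation P = 0.175, adjusted P = 0.459), so a difference in response between the genes was not shown. It differed by 2.51 percentage points between cotreatment and vehicle (two-sided exact permutation P = 0.0238, adjusted P = 0.119), which did not pass.

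Abcg2 (chr6:58584523-58695676, + strand), a half-transporter that expels many cytotoxic drugs, was called only with cotreatment. Vehicle tumors 1 to 5 measured 15.1, 16.1, 18.2, 18.7 and 19.2 CPM and KW6002 tumors 14.9, 14.3, 16.9, 16.3 and 15.0 CPM. Cisplatin tumors gave 18.2, 19.8, 19.6, 21.5 and 19.1 CPM and cotreated tumors 21.4, 24.7, 24.9, 20.5 and 25.9 CPM. All cotreated tumors were above all vehicle and KW6002 tumors. Cotreated tumors 2, 3 and 5 were also above every cisplatin tumor, whereas cotreated tumors 1 and 4 were below cisplatin tumor 4. Group means were 17.5 ± 1.78 CPM with vehicle, 15.5 ± 1.08 with KW6002, 19.6 ± 1.20 with cisplatin and 23.5 ± 2.37 with cotreatment (SD, n = 5). The log2 fold change against vehicle was 0.17 ± 0.0817 (SE) with cisplatin (edgeR adjusted P = 0.166) and 0.43 ± 0.0816 with cotreatment (adjusted P = 0.000402). Between cotreatment and cisplatin it was 0.26 (95% interval 0.09 to 0.43, adjusted P = 0.0605), and against KW6002 alone 0.60 (adjusted P = 1.39e-05). The interaction was 0.43 ± 0.116 (SE; 95% interval 0.19 to 0.67, unadjusted P = 0.00122, edgeR adjusted P = 0.128), and it was called by DESeq2 (adjusted P = 0.0271) and, with edgeR, without cotreated tumor 4, again the tumor of high muscle markers (0.47, adjusted P = 0.0421). Within the later run the difference of cotreatment from vehicle was 0.38 (adjusted P = 0.0356). Endothelium is a known site of Abcg2, and of its 8 markers 7 were called lower with cotreatment, beside 23.5% of all genes called in either direction. Their part in the value of Abcg2 was not tested.

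**Figure D5:**
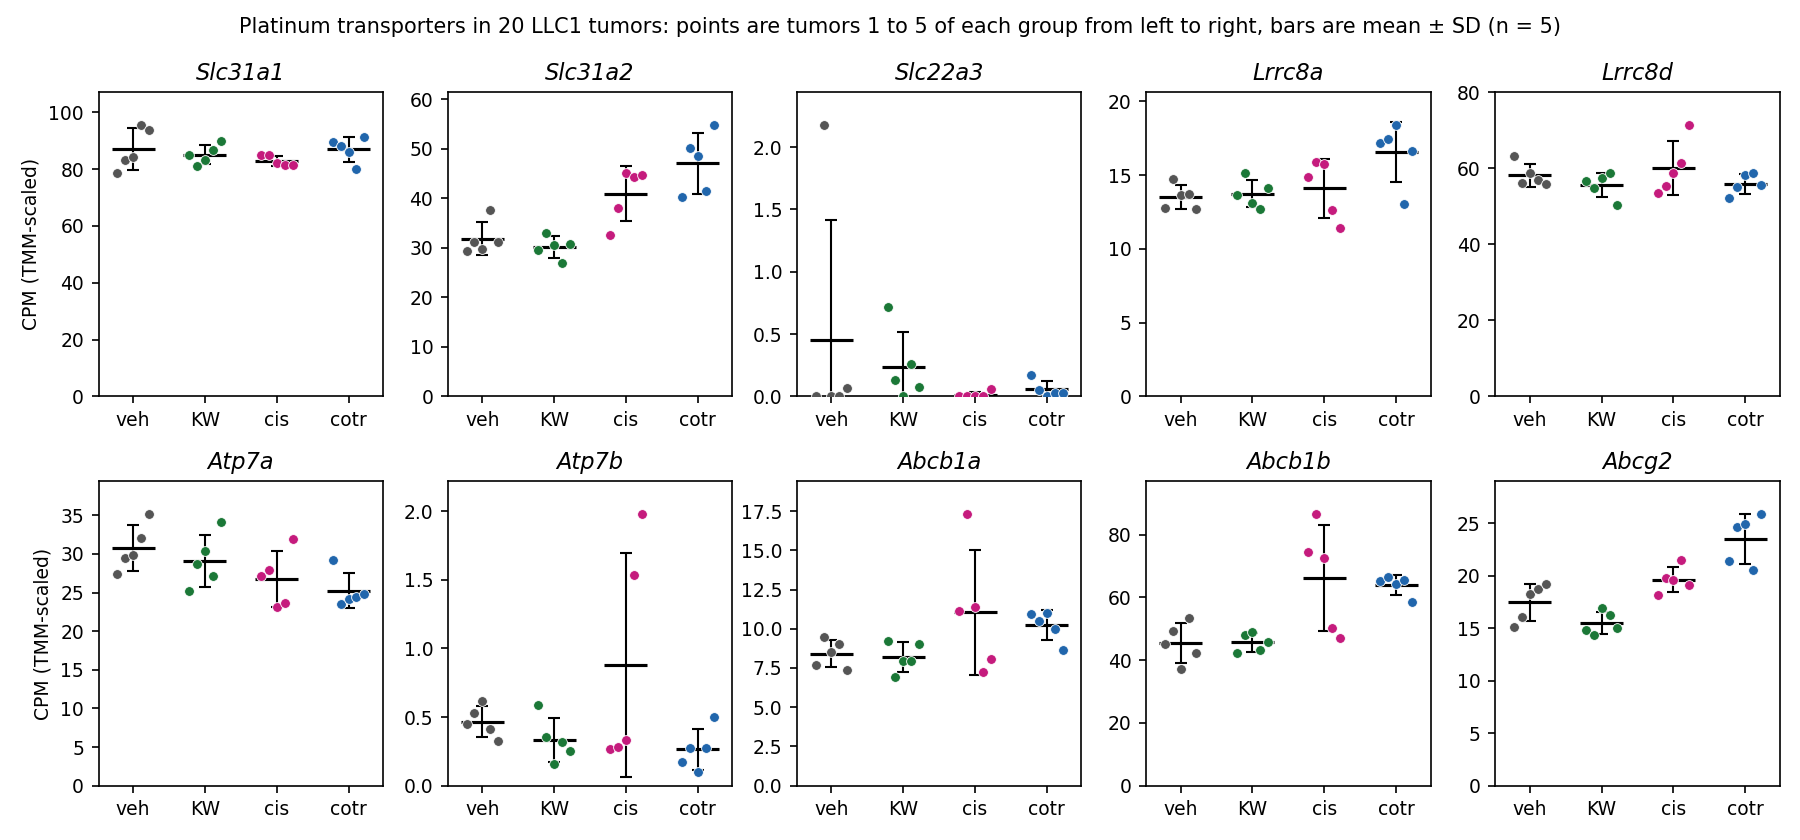
CPM (y axes from 0) of the 10 transporters in each tumor, with points in the order of tumors 1 to 5 and the mean and SD of each group of 5. Slc31a2, Abcb1b and Abcg2 lie above all vehicle tumors in every cotreated tumor, and cisplatin tumors 4 and 5 part from cisplatin tumors 1 to 3 in Abcb1a, Abcb1b, Lrrc8a and Atp7b.

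Ranges of CPM were also compared without a model. Cotreated and vehicle tumors did not overlap for 3 of the 9 transporters tested (Slc31a2, Abcb1b and Abcg2, all higher), beside 24.7% of all genes tested, and cotreated and KW6002 tumors did not overlap for the same 3, beside 24.9%. None of the 9 separated cisplatin from vehicle tumors (10.4% of all genes), cotreated from cisplatin tumors (4.83%) or KW6002 from vehicle tumors (0.342%).

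Other genes of copper handling and drug export were counted from lists that were fixed by function. Of 17 copper chaperones and homeostasis genes, all tested, 0 were called with KW6002 or with cisplatin, and with cotreatment 1 was called higher and 1 lower than in vehicle tumors, beside 10.6% of all genes called with cisplatin and 23.5% with cotreatment. Cox19 rose from 16.9 to 21.7 CPM on average (log2 fold change 0.36, edgeR adjusted P = 0.000884), and Cox17 fell from 20.6 to 15.7 CPM (-0.40, adjusted P = 0.000399). Within the later run Cox17 was not called (-0.31, adjusted P = 0.0721). Both supply copper to cytochrome c oxidase. Neither Atox1, the chaperone that hands copper to the ATPases, nor Ccs and Sod1 were called in any comparison.

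Of 9 further ABC pumps, 7 were tested. Abcc3 (0.37, edgeR adjusted P = 0.0365) and Abcc10 (0.56, adjusted P = 0.00958), both of the multidrug resistance protein family, were called higher with cisplatin, beside 10.6% of all genes called. With cotreatment Abcc10 (0.79, adjusted P = 0.000189) and Abcb11, the bile salt export pump (1.55, adjusted P = 0.00056), were higher than with vehicle, and Abcc1 was lower (-0.35, adjusted P = 0.0031), beside 23.5% of all genes called. Abcb11 was rare even so, with 0.261 to 0.598 CPM in vehicle tumors and 0.771 to 1.67 CPM in cotreated tumors. Abcc1, a glutathione-linked pump, fell from 253 to 199 CPM on average. Cotreatment also differed from cisplatin alone in these last 2 genes, by 1.09 for Abcb11 (adjusted P = 0.0328) and -0.37 for Abcc1 (adjusted P = 0.0146), beside 4% of all genes called. Neither call held within the later run (1.27 for Abcb11, adjusted P = 0.281, and -0.35 for Abcc1, adjusted P = 0.366) or in a fit of only those groups. Each was also lost without some single tumors, Abcb11 without cisplatin tumors 3, 4 or 5 or cotreated tumors 2, 3 or 5, and Abcc1 without cisplatin tumor 5 (-0.25, adjusted P = 0.0283) or cotreated tumor 2 (-0.34, adjusted P = 0.0522). The call of Abcc1 against vehicle was lost within the later run (-0.27, adjusted P = 0.222) and without cotreated tumor 2 (-0.31). The call of Abcc3 was lost within the later run (0.39, adjusted P = 0.0653) and without vehicle tumors 2, 3 or 4 or cisplatin tumors 2 or 3, each left out alone. Cisplatin tumor 5 had the highest Abcc1 of all tumors, at 335 CPM.

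Only 2 of 7 further organic cation and MATE carriers were tested, and Slc22a4, a carrier of ergothioneine, was called higher in cotreated than in KW6002 tumors (0.44, edgeR adjusted P = 0.0179), beside 23.3% of all genes called. That call was lost within the later run (0.43, adjusted P = 0.211) and without cotreated tumor 2 (0.38, adjusted P = 0.0562). The 2 other proteins linked to platinum export, Tmem205 and Atp11b, were not called in any comparison. Slc47a2 was not analysed here.

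Over the 20 tumors and 12740 genes with a symbol and a mean of at least 50 counts, the genes whose log2 CPM was most like that of each called transporter were listed. For Slc31a2 these were Snhg5 (Pearson r = 0.94, Spearman rho = 0.90), Pon2 (r = 0.94, rho = 0.92) and Xdh (r = 0.93, rho = 0.88). For Abcb1b they were Vps36 (r = 0.94, rho = 0.96), Prkg2 (r = 0.94, rho = 0.89) and Ddias (r = 0.93, rho = 0.91), and for Abcg2 Plpp1 (r = 0.95, rho = 0.95), Mum1l1 (r = 0.93, rho = 0.91) and Nr1h4 (r = 0.92, rho = 0.90). The 20 points share their treatment groups, and after subtraction of group means r was 0.62 to 0.85 for these 9 genes. They were picked as the highest of 12740 values, so the coefficients describe these tumors and were not tested. Ddias averaged 31.6 CPM with vehicle, 47.9 with cisplatin and 47.7 with cotreatment. Nr1h4, the bile acid receptor, averaged 0.262 CPM with vehicle, 2.02 with cisplatin and 6.93 with cotreatment.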

How the data were processed

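Stranded poly(A) RNA libraries of 20 LLC1 tumors (5 per group) were sequenced as 50-base single-end reads. The deposited values are raw read counts per gene: per the submitters' processing notes and the study's methods the authors used bcl2fastq 2.17.1.14, STAR (mm10) and HTSeq 0.6.1p1, counting uniquely aligned reads in union mode, so reads that fit more than 1 gene were left out. The strand setting is not given in the sources used here. There are no molecular identifiers, so counts carry PCR duplicates.

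Counts were fitted with edgeR 4.0.16 (R 4.3.3; quasi-likelihood test, robust, TMM scaling, 1 mean per group over all 20 tumors) after filterByExpr with a minimum count of 10, which kept 16665 of 35226 genes holding 99.92% of counts. P values were adjusted by Benjamini-Hochberg over all genes tested. A gene was called at an adjusted P under 0.05 and an absolute log2 fold change of at least 0.32, the limits the study used. The common biological coefficient of variation was 0.163. Shares within families were compared by two-sided exact permutation tests. Scripts were tested on simulated data. Lengths and transcripts came from GENCODE release 21 (GRCm38), promoters from RefSeq (GRCm38.p6).

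The transporters, lists (copper chaperones, ABC pumps, cation and MATE carriers, Lrrc8 subunits, platinum export, cell type markers) and tests were chosen with earlier results of these data known. Named were all 10 transporters, from each other list at most the 3 called genes of smallest adjusted P per comparison, and the 3 genes most correlated with each called transporter. The other genes named, such as Atox1, Mt1 and Mt2, were chosen after their values were seen. Alternatives included DESeq2 1.42.0, other scalings, filters and fold limits, the replicate number as a block, the library code run as a term, the later run alone and each tumor left out.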

Additional observations from a re-analysis of the deposited data

Results flagged for a closer look

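The 5 values of each transporter in each group were searched for a tumor far from the others, by the gap to the nearest tumor as a share of the group's range (critical ratio 0.71 for 5 tumors). This held for 4 of 40 groups, and chance alone gives about 1 in 20. Slc31a2 was highest in vehicle tumor 4, at 37.5 CPM (ratio 0.768). Atp7a was highest in cotreated tumor 1, at 29.2 CPM (ratio 0.77), the tumor that overlapped the vehicle range. Slc22a3 was 2.18 CPM in vehicle tumor 2 (ratio 0.97), the tumor with the highest fat markers, and 0.0574 CPM in cisplatin tumor 5, which is 2 counts beside 4 tumors at 0.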

How the results depend on the processing

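No fold change of a transporter reversed a call. Of 1765 fold changes under the alternatives, 10 lost a call, 22 gained one, 34 stayed uncalled but moved by 1 SE or more, and the other 1699 did none of these. For cisplatin against vehicle, 2 transporters were called, against 0 in a test against the fold limit itself and 1 in a fit of only the 2 groups, where Abcb1b was at 0.55 (adjusted P = 0.0583). For cotreatment against vehicle, 3 were called, against 5 with no fold limit (Atp7a and Lrrc8a added) and 1 when tested against the limit. For cotreatment against cisplatin, 0 were called by edgeR and 1 by DESeq2 (Atp7b), and 1 without cisplatin tumors 1 and 2, an alternative chosen after seeing the data (Atp7b, -2.26, with no P given since tumors of low counts were left out). For the interaction 0 were called, and 1 by DESeq2 (Abcg2). With each tumor left out in turn, the number called ran from 0 to 0 for KW6002, 2 to 3 for cisplatin and 3 to 4 for cotreatment against vehicle, 0 to 1 for cotreatment against cisplatin (Atp7b without cisplatin tumor 1, cisplatin tumor 2 or cotreated tumor 5), 3 to 4 against KW6002 and 0 to 1 for the interaction (Abcg2, without cotreated tumor 4). Over all genes tested, cisplatin gave 1762 calls and 2752 with no fold limit, 447 against the limit, 2743 in the later run and 2860 without cisplatin tumors 1 and 2. Cotreatment gave 3914, and 5906, 1658 and 2209 under the first 3 of these, and against KW6002 3884, and 5837, 1763 and 1654. Cotreatment against cisplatin gave 667, and 1086, 28, 1 and 2082 under the same 4, 217 in a fit of only those groups and 289 to 1013 without a tumor. The interaction gave 11, with 0 to 229 without a tumor, 258 by DESeq2 and 365 without cisplatin tumors 1 and 2. The causes were not tested. With the replicate number as a block the number called was 0, 2, 3, 0, 3 and 0 in the 6 comparisons, as without it, and Abcb1b with cisplatin was 0.52 (adjusted P = 0.0102), while Abcc3 with cisplatin (0.36, adjusted P = 0.0679) and Abcb11 against cisplatin (1.10, adjusted P = 0.05004) were not called. Tumors of the same number in different groups correlated at -0.392 to 0.391 over 30 pairs. The mean was -0.00713, beside 0.00161 for tumors of other numbers, so no pairing by number was seen in these values. They cannot show whether the mice were handled in blocks. Atp7b and Slc22a3 are limited by depth, and Lrrc8a and Abcb1a by reads shared with other genes.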
